A study of Mus musculus with 6 samples.

Results

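The cluster that runs from miR-290 to miR-295 is a group of miRNA hairpins made in mouse pluripotent cells. From 3 of its hairpins the 5p strand, cut from the 5′ arm, was recovered often in hybrids with mRNA: mmu-miR-290a-5p, mmu-miR-291a-5p and mmu-miR-292a-5p, written below without the species prefix. The hybrids of these 3 strands were chosen by name, from 298 miRNAs with a hybrid. They were recorded by AGO2 CLASH, in which UV cross-linking, pulldown of AGO2 and RNA ligation join a miRNA to the mRNA fragment bound by the same AGO2, and sequencing then reads both as a single hybrid. The cells were P19, a mouse embryonic carcinoma line from a teratocarcinoma, as 3 biological replicates labelled WT, with the genotype Dicer (+/+), and 3 labelled HM, with the genotype Dicer (HM/-). HM cells carry a hotspot missense mutation in the RNase IIIb domain on 1 Dicer1 allele and a frameshift truncation on the other. They were derived by the authors through a clonal line in which a single allele had been knocked out first, and libraries of that intermediate line were not analysed here, so the loss of an allele, the hotspot mutation and clonal change cannot be told apart.

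Dicer cuts a hairpin precursor with its RNase IIIa domain on the 3p side and its RNase IIIb domain on the 5p side, and AGO2 then keeps 1 strand as the guide. A guide finds its targets mainly through its seed, bases 2 to 8 from its 5′ end, and pairing by its 3′ part can add to the seed or stand in for it. Among the 3p strands of this cluster, miR-290a-3p and miR-291a-3p carry the AAGUGC motif of the embryonic cell cycle miRNAs. The targets of the 5p strands are less well described.

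The mature sequences show how the strands are related, so they are given first, 5′ to 3′, with the seed in capitals. They are RefSeq entries on the plus strand of chromosome 7 (GRCm38.p6), and miR-291b-5p is added since it shares a seed with miR-291a-5p.
miR-290a-5p: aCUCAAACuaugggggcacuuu
miR-292a-5p: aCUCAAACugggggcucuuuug
miR-291a-5p: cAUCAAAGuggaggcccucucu
miR-291b-5p: gAUCAAAGuggaggcccucucc
They lie at chr7:3218639-3218660, chr7:3219200-3219221, chr7:3218932-3218953 and chr7:3219494-3219515, respectively. miR-290a-5p and miR-292a-5p have the same seed and are identical at 15 of 22 positions when laid side by side without gaps. The rarer miR-293-5p of this cluster, not printed, also has this seed and is identical to miR-292a-5p at 17 of 22 positions. miR-291a-5p has another seed, is identical to miR-291b-5p at 20 of 22 positions, and matches miR-290a-5p at 12. A full site for the seed of miR-290a-5p and miR-292a-5p reads GTTTGAG in a target, and that of miR-291a-5p reads CTTTGAT. The miRNA part of a hybrid equalled the whole mature sequence in 96.3% of miR-291a-5p reads, 61.5% of miR-290a-5p reads and 26.9% of miR-292a-5p reads. Of the 78 miR-290a-5p reads, 11 (14.1%) began at base 2 of the mature sequence, against 2 of 215 for miR-291a-5p and 1 of 67 for miR-292a-5p.

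The libraries held 1621 to 2331 hybrid reads in WT and 1661 to 5341 in HM. This cluster and that of miR-302 and miR-367, which both mark pluripotent cells, made up 8.14% to 9.78% and 26.3% to 28.96% of WT hybrids and 4.82% to 5.47% and 51.4% to 53.9% of HM hybrids. Strands of let-7 and miR-98, of miR-124 and of miR-9 had 0 to 3 reads for each marker set in a library, and no hybrid named miR-1a, miR-133a, miR-122 or miR-142. The 3 strands of interest had 360 reads in 339 entries, of which 323 had 1 read and the largest had 4. The treatment of PCR duplicates was not stated, so intervals and limits here cover counting error only. Of 323 distinct WT sequences, 13 occurred in more than 1 WT library.

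In WT cells the 3 strands together held 113, 156 and 90 reads in libraries 1, 2 and 3. This was 6.03% ± 0.590 (SD, n = 3) of all hybrids and 11.3% ± 1.39 of the 5p hybrids. In HM cells they held 0, 1 and 0 reads. A count of 0 allows up to 3 reads, or 0.181% and 0.107% of the hybrids of HM libraries 1 and 3. Every WT library lay above every HM library. The difference in the mean share was -6.03 percentage points, at p = 0.1 by a two-sided exact permutation test, and 3 against 3 libraries cannot give a smaller p. Since hybrids are shares of a library, fewer cells with a strand, less of it per cell and fewer ligations cannot be told apart.

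mmu-miR-291a-5p was the most frequent, with 70, 82 and 63 WT reads and none in any HM library. Its level was 3.68% ± 0.189 of WT hybrids, which placed it as number 5 among the 5p strands by WT reads. The 3 WT libraries lay close to each other and apart from HM, and relative to 3p hybrids the strand was at least 67.0-fold lower in HM (adjusted p = 3.38e-67, edgeR quasi-likelihood test). This bound sets each HM library with fewer than 3 reads to 3.
mmu-miR-290a-5p had 26, 39 and 13 reads in WT and none in HM. It made up 1.27% ± 0.440 of WT hybrids and was at least 22.9-fold lower in HM (edgeR adjusted p = 1.07e-32). Its WT libraries spread more widely than those of miR-291a-5p, with library 3 lowest.
mmu-miR-292a-5p was read 17, 35 and 14 times in the WT libraries and 0, 1 and 0 times in the HM libraries. It made up 1.08% ± 0.363 of WT hybrids and was 19.6-fold lower in HM with each HM library set to 3 reads (edgeR adjusted p = 4.06e-28). The library with 1 read was also set to 3, the limit for a count of 0, so this value is not a strict lower bound. Exact permutation tests of the share gave p = 0.1 for each of the 3 strands, also after Benjamini-Hochberg adjustment over the 3. Among all 94 miRNAs tested, 43.6% were called lower in HM, and among the 34 tested 5p-miRNAs 94.1% were. Of these 34, 32 reached the minimum of 10 reads in WT alone and 4 in HM alone. The 3 strands reached it through their WT reads alone, so their fits are given as a description. The authors reported that another miRNA cluster was silenced in the HM line, which they described as a transcriptional and clonal effect. Its miRNAs were not removed here, and their part in these shares was not tested.

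**Figure D1:**
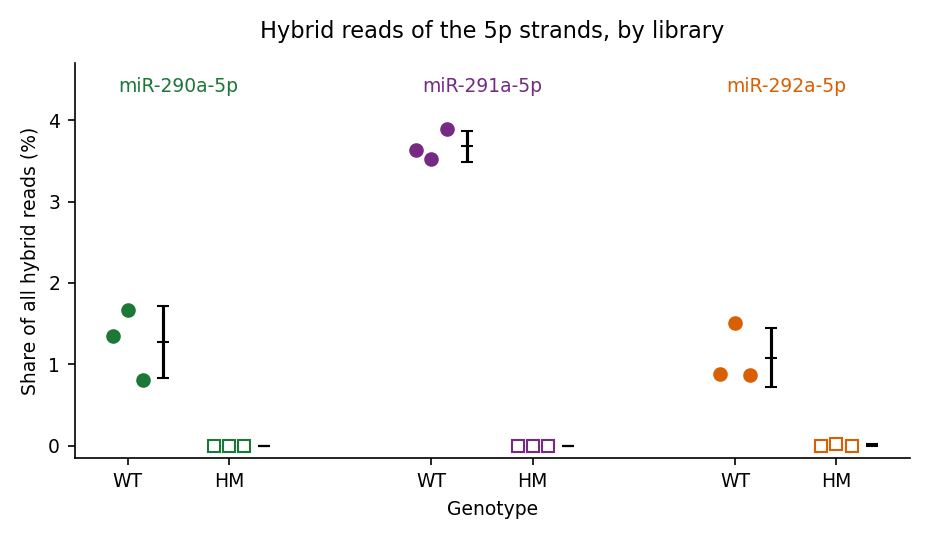
Share of all hybrid reads (%) held by each strand in each library. Filled circles are WT and open squares HM libraries, and bars give the mean ± SD over 3 libraries. All 9 WT points lie between 0.802% and 3.89%, and the HM points at 0 except 1 read of miR-292a-5p.

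The other 5p strands of the cluster were rarer and were likewise missing from HM. miR-291b-5p had 4, 3 and 1 WT reads, miR-293-5p 1, 3 and 0, miR-294-5p 10, 0 and 2, and miR-295-5p 1, 2 and 1. Together these 4 strands had 28 reads in WT and 0 in HM. Over all 5p-miRNAs other than the 3 strands, 2790 WT reads stood beside 370 HM reads, of which 173 belonged to miR-466i-5p. The 3p strands from the same hairpins remained. The WT reads of miR-291a-3p were 14, 16 and 7 and its HM reads 12, 50 and 20. For miR-292a-3p the WT libraries had 20, 16 and 17 reads and the HM libraries 27, 126 and 58. Relative to 3p hybrids their log2 fold changes were -0.66 (edgeR adjusted p = 0.0866) and 0.17 (0.554), and relative to all hybrids 0.40 (0.274) and 1.24 (3.38e-07), so the direction of miR-291a-3p depended on the scaling. miR-290a-3p had no WT read and 1 HM read. miR-293-3p was higher in HM on either scaling, with 1, 5 and 1 reads in WT against 11, 43 and 29 (log2 fold change 1.76 per 3p hybrid, edgeR adjusted p = 0.00193).

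The WT hybrids of these strands fell on 180 genes, of which 92 were bound by miR-291a-5p, 54 by miR-292a-5p and 43 by miR-290a-5p. How far the reads gathered on single genes differed among them. miR-291a-5p placed 80 of 215 reads (37.2%, exact 95% interval 30.7% to 44.0%) on Laptm4a, which encodes a transmembrane protein of lysosomes and late endosomes. miR-290a-5p placed 18 of 78 (23.1%, 14.3% to 34.0%) on Rcc2, a protein that associates with chromosomes in mitosis. The most frequent gene of miR-292a-5p, the transcription factor gene Yy2, had 5 of 66 reads (7.58%, 2.51% to 16.8%).

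The lead of the first 2 genes was present in each WT library. Laptm4a took 19 of 70, 30 of 82 and 31 of 63 miR-291a-5p reads, a mean of 37.6% ± 11.1. Rcc2 took 4 of 26, 9 of 39 and 5 of 13 miR-290a-5p reads, a mean of 25.6% ± 11.8. Yy2 took 1 of 17, 4 of 35 and 0 of 14 miR-292a-5p reads, and no gene of this strand had a read in all 3 libraries. Besides Laptm4a, miR-291a-5p met only Max, the partner of MYC, and Yy1, a transcription factor, in every WT library, and besides Rcc2, miR-290a-5p met only the ubiquitin ligase gene Trim37. Most other genes were seen once: 70 of 92 genes of miR-291a-5p, 31 of 43 of miR-290a-5p and 46 of 54 of miR-292a-5p had a single WT read.

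For comparison, 15 other miRNAs had at least 60 WT reads. The share of their most frequent gene ranged from 3.00% to 31.1%, with a median of 6.40%. miR-291a-5p had the highest share of the 18 miRNAs, and miR-290a-5p came after miR-92a-3p, which placed 31.1% of its reads on Atp7a, a copper transporter. miR-292a-5p ranked number 9. With an equal number of 60 reads, miR-291a-5p would be expected on 32.6 genes, miR-290a-5p on 35.6 and miR-292a-5p on 49.8, and the other miRNAs on 31.1 to 54.0 (median 51.2). These are descriptions over miRNAs of the same libraries and carry no test.

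**Figure D2:**
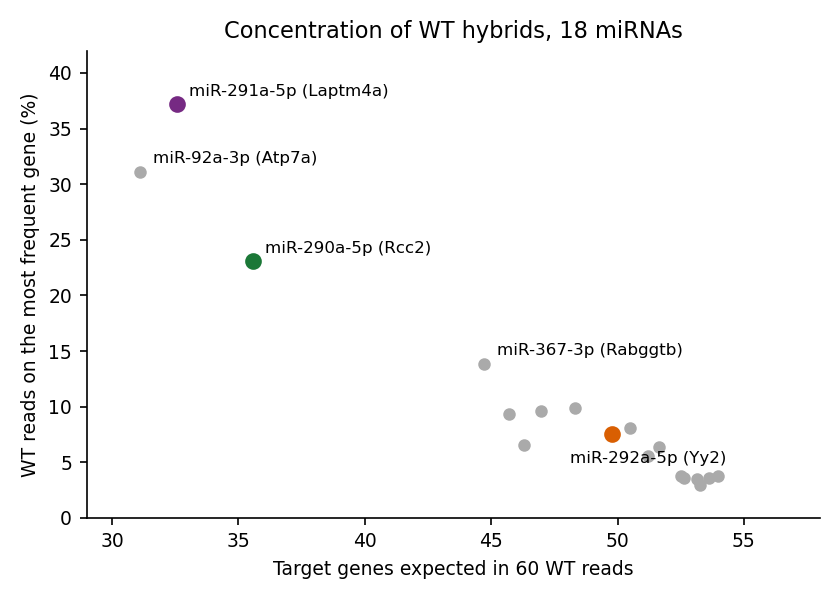
Share of WT reads on the most frequent gene (%) against the number of target genes expected in 60 WT reads, for the 18 miRNAs with at least 60 WT reads (3 WT libraries summed; coloured points are the cluster 5p strands, grey points the others). miR-291a-5p, miR-92a-3p and miR-290a-5p lie apart at 37.2%, 31.1% and 23.1%.

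Fragments behind some of the leading genes are shown next because each of these genes was met at a single place. Every printed stretch is at most 30 bases of a fragment that mapped to a 3′ UTR, 5′ to 3′, and capitals mark target bases paired with the miRNA in the duplex of lowest energy predicted by RNAduplex. The build to which the fragments were mapped is not given in the sources used here, so no coordinates are printed.
Rcc2 with miR-290a-5p: tccAAAGTGtttCCCTCAatGTTTGAttaa
Znf146 with miR-291a-5p: aaggAGGGAGGGCTTaaGCTTTGATatgag
Strap with miR-291a-5p: ttctGAGtGGCCTTtagTACTTTGATcaga
Ccnd2 with miR-290a-5p: acaaaatcTGCCCCCAccTAGatcctattt
Gpt2 with miR-290a-5p: ttctttGTGCCTTgATGTTTGAGagttctt
Of the 80 Laptm4a reads, 77 shared a stretch of 12 bases, although the 80 came from 60 entries with 45 distinct fragments. The Laptm4a site held no seed match. The single miR-291b-5p read on Laptm4a had the same stretch. None of the other 34 WT reads on Laptm4a, from 8 further miRNAs led by miR-93-5p (12 reads) and miR-20b-5p (8 reads), contained it.

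All 18 Rcc2 reads shared 1 stretch. It matched bases 3 to 8 of miR-290a-5p, an offset 6mer, and the duplex had 18 pairs, among them all of bases 12 to 17, at -20 kcal/mol. Of these reads, 4 had a miRNA part that began at base 2 of the mature sequence.
Znf146, a zinc finger gene, had 12 miR-291a-5p reads (7, 5 and 0 in the WT libraries) at 1 site. In 11 of them the fragment held an 8mer, which is a match to bases 2 to 8 followed by an A, and in 1 it held no seed match. Its duplex of -30.5 kcal/mol also paired bases 12 to 17. Strap, which encodes a receptor-associated protein, had 8 reads (3, 5 and 0) at a 7mer-m8, a match to bases 2 to 8 without the A. Neither gene had a read in WT library 3, where Laptm4a took its largest share. The site on Ccnd2, the cyclin D2 gene, lacked a seed match and paired bases 8 to 18 of miR-290a-5p in 11 pairs that were consecutive on the miRNA side, while Gpt2, an alanine transaminase gene, had an 8mer. Both had 3 reads in WT, 2 in library 1 and 1 in library 2.

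Other genes with the most reads had 2 or 3 each. For miR-290a-5p these were Msl1 of a histone acetyltransferase complex, Tbc1d12, Trim37, Yy2 and the repressor gene Zbtb7a, with 3 reads each. For miR-291a-5p they included, with 3 reads each, Acsl4, a fatty acid ligase gene, Max, Sgol1, which protects cohesion at centromeres, and Ubxn1. For miR-292a-5p they were the ubiquitin-conjugating enzyme gene Ube2n with 3 reads, and with 2 reads each Csrp2bp, Pank3, the histone methyltransferase gene Setd1b, Tbc1d12, the AGO partner gene Tnrc6a and Trim35. An 8mer was present in every read of Sgol1, Ubxn1, Csrp2bp, Setd1b, Tnrc6a and Trim35, and no seed match in any read of Tbc1d12, Zbtb7a or Pank3.

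Over all reads, seed sites made up a smaller share for these strands than for the other miRNAs, given here as a description with no test. A site of 6 bases or longer (a match to bases 2 to 7, or more) was present in 13 of 78 miR-290a-5p reads (16.7%, exact 95% interval 9.18% to 26.8%), 86 of 215 miR-291a-5p reads (40.0%, 33.4% to 46.9%) and 20 of 66 miR-292a-5p reads (30.3%, 19.6% to 42.9%). By WT library the shares were 19.2%, 15.4% and 15.4% for miR-290a-5p, 44.3%, 45.1% and 28.6% for miR-291a-5p, and 29.4%, 37.1% and 14.3% for miR-292a-5p. They were the 3 lowest of 17 miRNAs with enough reads and a RefSeq sequence, whose other 14 ranged from 42.3% to 91.8% with a median of 71.3%. The interval of miR-291a-5p covered the lowest of these, 42.3% for miR-302d-3p, and its WT libraries 1 and 2 lay above it. Without Laptm4a its share was 63.7%, inside the range of the other 14. The same letters occurred in 0.978% of WT reads of miRNAs outside the 3 strands for the seed of miR-290a-5p and miR-292a-5p and in 1.30% for that of miR-291a-5p. The table kept only miRNA and gene pairs predicted by TargetScan, which relies on seed sites in the UTR, and the part of that filter in these shares was not tested.

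The reads without a seed site lay in different places. For miR-291a-5p they lay largely in Laptm4a, and without that gene 63.7% of 135 reads had a site. For miR-290a-5p 33 of 78 reads (42.3%) had no seed match of any class and 32 (41.0%) had the offset 6mer, which was present in 0.706% of reads of other miRNAs. Of these 32 reads 18 were on Rcc2, and without that gene 33 of 60 reads had no match and 14 the offset 6mer. Of the 11 miR-290a-5p reads that began at base 2, 9 had the offset 6mer, which for such a shorter strand is a match to its own bases 2 to 7. When the seed was read from the first base of each hybrid, 26.9% of miR-290a-5p reads had a site, against 39.5% and 33.3% for miR-291a-5p and miR-292a-5p. miR-292a-5p had the offset 6mer in 11 of 66 reads (16.7%), and 35 reads (53.0%) had no seed match of any class.

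**Figure D3:**
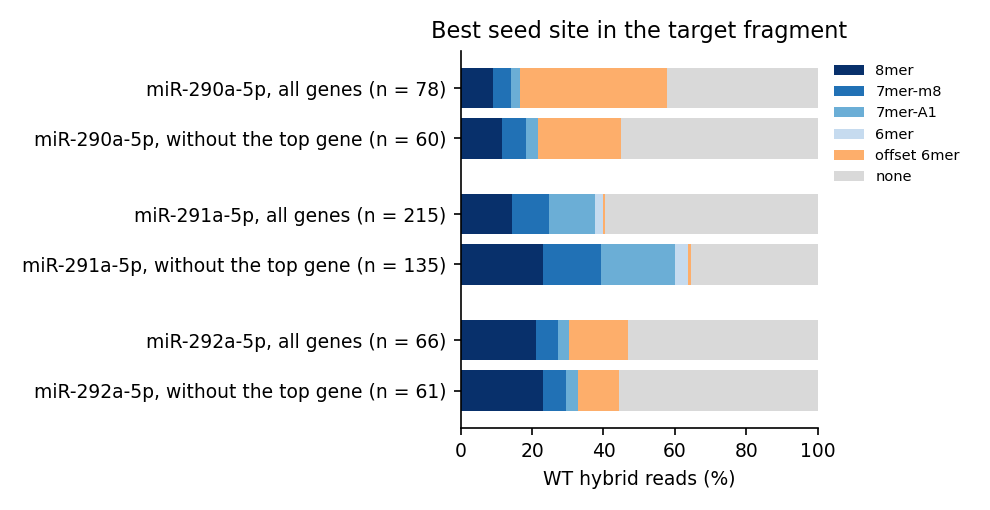
Best seed site in the fragment of each WT hybrid read (% of reads, 3 WT libraries summed) for all genes of a strand and without its most frequent gene (Rcc2, Laptm4a and Yy2). Leaving out Laptm4a raises the share with a 6mer or longer from 40.0% to 63.7% for miR-291a-5p, and orange marks the 41.0% of miR-290a-5p reads with an offset 6mer.

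Pairing past the seed was extensive. Bases 12 to 17 were paired in the predicted duplex in 92.9% ± 2.43 of cases for miR-290a-5p, 86.7% ± 1.57 for miR-291a-5p and 81.2% ± 6.65 for miR-292a-5p (mean share of the 6 bases ± SD over 3 WT libraries). With all WT reads summed these were the 3 highest of the 17 miRNAs, the others ranging from 32.9% to 71.4%. Part of this was already present with fragments of other miRNAs, to which the same mature sequences paired these bases in 77.0%, 55.8% and 65.4% of cases. The gain on their own fragments was thus 15.1, 30.8 and 15.9 percentage points, beside -14.7 to 29.6 (median -1.60) for the other 14 miRNAs, where the highest was again miR-92a-3p. Of these 14, miR-19b-3p had a gain of 15.1, close to miR-290a-5p and miR-292a-5p, and the rest had at most 5.22. Without Laptm4a, miR-291a-5p still paired bases 12 to 17 in 79.0% of cases. The seed bases themselves were paired in 69.4%, 55.9% and 76.4% of cases, against 25.1%, 43.4% and 29.9% with fragments of other miRNAs.

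Pairing in the 3′ part was high with and without a seed site. In miR-291a-5p reads without a 6mer, bases 12 to 17 were paired in 92.5% of cases and seed bases in 29.7%. Of these 129 reads 80 were on Laptm4a, and in the other 49 the values were 81.0% and 55.1%. In its reads with a 6mer the values were 77.9% and 95.3%. For miR-290a-5p bases 12 to 17 were paired in 93.6% of cases without and 84.6% with a 6mer, and for miR-292a-5p in 80.4% and 83.3%. The median free energy was -20, -22.4 and -18.8 kcal/mol for miR-290a-5p, miR-291a-5p and miR-292a-5p, beside -20.4 to -9.20 for the other miRNAs, and -7.90, -8.70 and -7.80 for the same strands with fragments of other miRNAs. Fragments of the 3 strands were also longer, with medians of 30, 34 and 28 nt against 22 to 33 nt (median 23) for the other miRNAs. The value of 33 nt was that of miR-92a-3p. The part of length in the energies, and in the pairing of seed bases and of bases 12 to 17, was not tested.

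**Figure D4:**
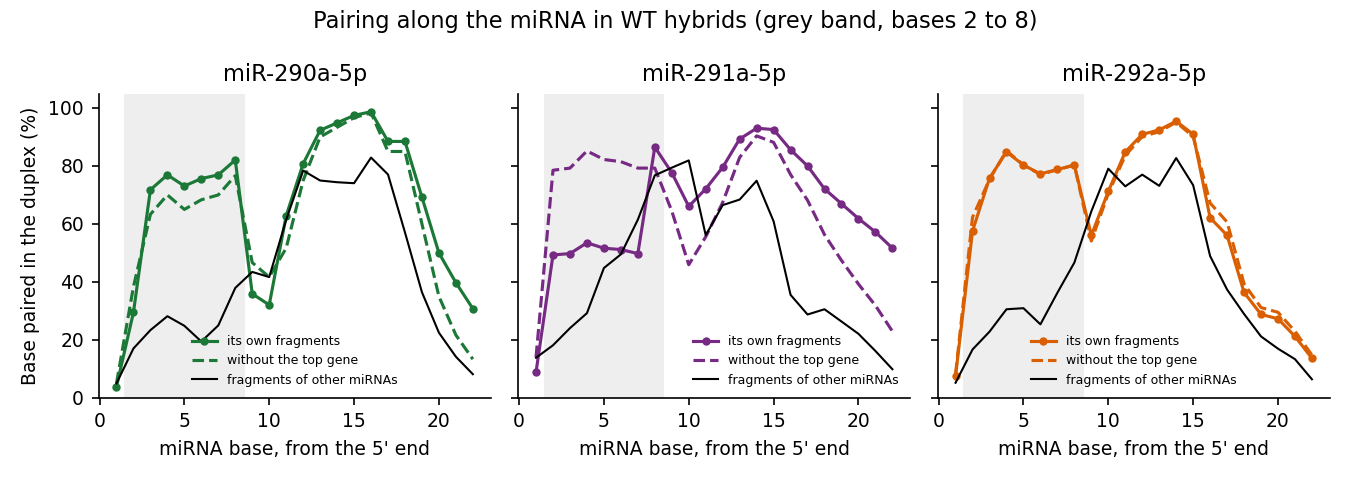
Share of cases (%) in which each miRNA base, counted from the 5′ end, was paired in the predicted duplex in WT hybrids, weighted by reads. Coloured solid lines are a strand's own fragments, dashed lines leave out its most frequent gene, and black lines are fragments of all other miRNAs. Base 16 of miR-290a-5p was paired in 98.7% of cases with its own and 82.9% with other fragments.

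**Figure D5:**
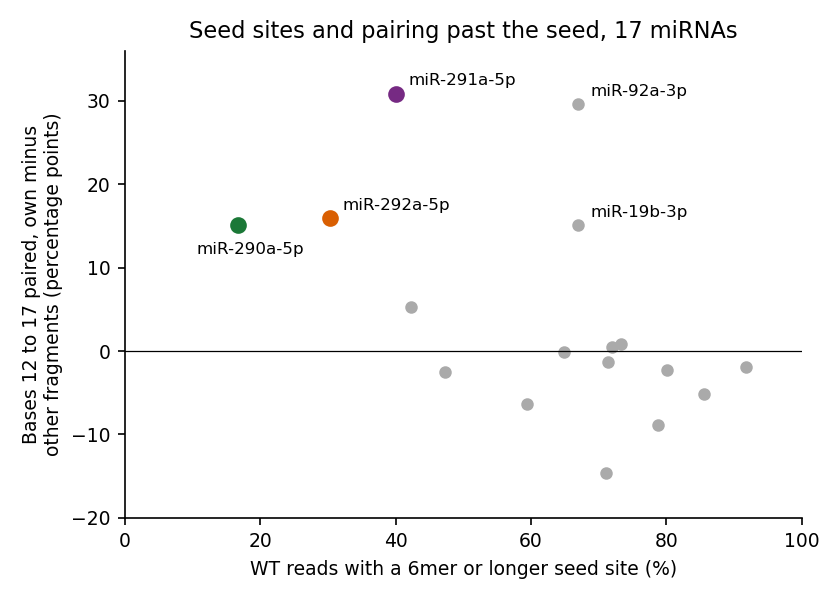
Share of WT reads with a 6mer or longer seed site (%) against the gain in pairing of bases 12 to 17 (percentage points, own fragments minus fragments of other miRNAs) for 17 miRNAs. The coloured cluster strands have the 3 lowest seed shares (16.7%, 30.3% and 40.0%) and gains of 15.1 to 30.8. All genes are included, and without Laptm4a the seed share of miR-291a-5p was 63.7%.

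Strands with the same seed met some of the same genes. The genes of miR-293-5p, which has the seed of miR-290a-5p and miR-292a-5p, are not given here. miR-290a-5p and miR-292a-5p shared 8 genes, which is 18.6% of the genes of the former and 14.8% of the latter, and for 7 of the 8 their fragments had at least 12 bases in common (among them Jhdm1d, Marcks, Msl1, Setd1b, Tbc1d12 and Yy2). miR-291a-5p shared no gene with miR-290a-5p and only Zfp91 with miR-292a-5p, at different fragments. All miRNAs together met 3200 genes, and the overlap of other pairs of miRNAs is not given here. The counts are therefore a description, and no contrast between seeds was tested. TargetScan predicts by seed family, and the part of that filter in this overlap was not tested. The shared site on Yy2 is printed as an example, with capitals again for paired bases.
Yy2 with miR-290a-5p: aataTGCCCCTAGTTTGAatagtttc
Yy2 with miR-292a-5p: aaatatGCCCCTAGTTTGAatagtttctag
It held 3 reads of miR-290a-5p and 4 of the 5 reads of miR-292a-5p, and the offset 6mer GTTTGA was present in all 7.

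The gene lists gave few targets. They held 15 G1/S and other genes known as targets of the 3p strands of the cluster, 18 genes of lysosomal and late endosomal membrane proteins, 21 of apoptosis, 24 pluripotency and differentiation factors and 16 of Ran and mitosis. Of the first, 7 had a hybrid with any miRNA and 1, Wee1, a kinase that holds back mitosis, had 1 miR-290a-5p read. This was 0.279% of the WT reads of the 3 strands, beside 1.22% for all miRNAs on this list, with no test. Of the lysosomal list 5 genes had a hybrid with any miRNA and Laptm4a alone was bound by the strands, and of the Ran and mitosis list 2 had one and Rcc2 alone was bound. No apoptosis or pluripotency gene was bound, although 10 and 9 of them had a hybrid with some miRNA. A count of 0 allows up to 0.836% of the 359 WT reads, and all miRNAs together placed 0.833% and 0.204% of WT hybrids on these 2 lists, so a difference from all miRNAs was not detectable at this depth.

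In HM cells 1 read remained. It joined miR-292a-5p to Tbc1d12, in library 2, which had the most hybrids. Its fragment had no seed match, a duplex energy of -14.4 kcal/mol and the same 12 bases as the 2 miR-292a-5p and 3 miR-290a-5p reads of this gene in WT. Single pairs could be tested where they had at least 10 reads. The 3 pairs of these strands that could be tested reached this minimum through their WT reads alone, so their values are given as a description. miR-291a-5p with Laptm4a fell from 19, 30 and 31 reads to none, at least 25.7-fold relative to 3p hybrids (edgeR adjusted p = 3.21e-29). miR-290a-5p with Rcc2 fell from 4, 9 and 5 reads to none, at least 5.48-fold (edgeR adjusted p = 4.99e-09). miR-291a-5p with Znf146 fell from 7, 5 and 0 reads to none, at least 3.39-fold (edgeR adjusted p = 1.46e-05), and this call was lost in DESeq2 (adjusted p = 0.307) and rests on WT libraries 1 and 2, since without either of them the pair had too few reads for a test. Of all 140 pairs tested, 13.6% were called lower and 2.14% higher in HM, and of the 15 tested pairs of a 5p-miRNA 100% were lower. Of these 15, 14 reached 10 reads in WT alone and 0 in HM alone, so the minimum of reads itself favoured pairs that were lower.

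Hybrids of any miRNA remained on many of these genes in HM. Of the 180 WT target genes, 117 (65.0%) had an HM hybrid. The same share for target genes of other miRNAs is not given here. Of those 1019 HM reads 97.4% came from 3p-miRNAs, led by miR-302b-3p (247 reads), miR-367-3p (157) and miR-92a-3p (97). Over all genes, 3p hybrids likewise made up most of each HM library, with 1585 of 1661, 5113 of 5341 and 2670 of 2797 reads. Hybrids of miRNAs other than the 3 strands on these genes were 11.5%, 11.9% and 10.6% of all hybrids in WT and 10.1%, 10.0% and 11.3% in HM, with overlapping ranges. After the filter of 10 reads 50 of the 180 genes were tested over all miRNAs, and 11 were called lower and 1 higher in HM, beside 10.8% lower and 5.81% higher among all 344 genes tested. The 180 genes were chosen by a WT read, so these counts are given as a description. Of the 11, Epha4, Laptm4a, Rcc2 and Tnrc6a passed under all 13 alternatives and Spry4 under the 11 in which it was tested. Znf146 passed under 9 of the 10 in which it was tested, but not in DESeq2 (adjusted p = 0.391). It had too few reads for a test without WT replicate 1 or 2.

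Of the 180 genes, 77 were met by no other miRNA in WT, and 30 of these had an HM hybrid of another miRNA, with 1 to 20 reads each (median 1). The same count for genes met by a single other miRNA is not given here. The most frequent genes of the 3 strands were among those that fell. Laptm4a, Rcc2 and Yy2 were picked by their WT reads of these strands and reached the minimum of 10 reads in WT alone. Most of their WT reads came from the strands, so their values are given as a description. Laptm4a had 34, 45 and 36 hybrids of any miRNA in WT and 0, 1 and 0 in HM (log2 fold change -7.04 ± 0.60 SE, edgeR adjusted p = 2.74e-28), and its HM read came from miR-130a-3p. Its 35 WT reads from other miRNAs included 32 from 6 strands of the miR-17 family (miR-17-5p, miR-20a-5p, miR-20b-5p, miR-93-5p, miR-106a-5p and miR-106b-5p), none of which had an HM read on this gene. Rcc2 had 5, 9 and 6 in WT and 0, 1 and 0 in HM (log2 fold change -4.53 ± 0.94, edgeR adjusted p = 7.24e-05). Of its 20 WT reads, 18 came from miR-290a-5p. Yy2 had 2, 7 and 1 in WT and 0, 2 and 0 in HM, and 8 of its 10 WT reads came from miR-290a-5p and miR-292a-5p (log2 fold change -2.80 ± 1.02, edgeR adjusted p = 0.0409). Yy2 no longer passed after TMM scaling, with no minimum of reads, with the replicate block, or without HM replicate 1 (log2 fold change -2.58) or HM replicate 3 (-2.39), at adjusted p of 0.0531 to 0.251.
Other genes that fell had been met mostly by other miRNAs. Of the 46 WT hybrids on Epha4, an ephrin receptor gene, 1 was from miR-290a-5p, and of the 18 on Spry4, an inhibitor of receptor tyrosine kinase signalling, likewise 1. Tnrc6a had 2 miR-292a-5p reads among 31. The only gene that rose was Ptar1, with 0, 1 and 0 WT reads, the single one from miR-291a-5p, and 5, 11 and 4 HM reads led by miR-106a-3p (log2 fold change 3.27 ± 1.06, edgeR adjusted p = 0.0201). Relative to 3p hybrids Ptar1 did not pass (edgeR adjusted p = 0.148), nor without WT replicate 1 or 3 or HM replicate 1 or 2 (0.0521 to 0.0931).

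Across the 6 libraries, the miRNAs whose hybrid levels followed the 3 strands most closely were other 5p strands. Over 67 miRNAs with at least 20 reads, the Pearson correlation of log2 levels was highest with miR-30a-5p for miR-290a-5p and miR-292a-5p and with miR-17-5p for miR-291a-5p, and 20 miRNAs exceeded 0.9 for each strand. miR-30a-5p had 41 reads in WT and 0 in HM, and miR-17-5p 225 and 1. These correlations describe 6 libraries of 2 genotypes and carry no test.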

How the data were processed

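AGO2 CLASH was carried out by the authors on P19 cells, with 3 WT and 3 HM libraries. They named the miRNA part of each hybrid with QuagmiR, mapped the target part with Bowtie2 to 3′ UTRs of mouse coding genes, and kept only pairs predicted by TargetScan 8.0. Tool versions, genome build, duplicate removal and the handling of multi-mapping fragments are not given in the sources used here, so reads may not be independent molecules, and sites outside 3′ UTRs or predicted pairs are not counted. The deposited table lists every distinct hybrid sequence per library with its raw read count, without normalization. WT libraries held 1929, 2331 and 1621 reads, HM libraries 1661, 5341 and 2797, and a count of 0 allows up to 3 reads.

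Reads were summed per library, miRNA and gene, with genotype and replicate number taken from the sample titles. All miRNAs were kept, also those of the cluster that the authors reported as silenced in the HM line. Counts were tested with edgeR 4.0.16 (glmQLFit and glmQLFTest, R 4.3.3) for every miRNA, miRNA-target pair and gene with at least 10 reads, and called at a Benjamini-Hochberg adjusted p under 0.05. For miRNAs and pairs, 3p hybrids alone served as library size, since 5p hybrids were few in HM, and for genes all hybrids did. Shares were compared by two-sided exact permutation tests (scipy 1.17.1). The edgeR test was also tried on simulated data, and the outcome is not given here. Fold bounds are the mean WT share over the mean HM share with each HM library under 3 reads set to 3. Seed sites were searched on the target strand only, as bases 2 to 8, 2 to 7 or 3 to 8 of the RefSeq mature sequence, and duplexes were predicted with RNAduplex (ViennaRNA 2.7.2). Of the 180 target names, 160 matched a RefSeq symbol, 13 a synonym and 7 neither, and names are used as deposited. Mature sequences of miR-292a-3p and miR-302a-3p were not used here.

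The named target genes were the 8 with the most WT reads of each strand, every pair that could be tested and every pair with an HM read. Some of these targets and a site sequence are not reported here. Genes with a changed total over all miRNAs, and those met in all 3 WT libraries, were named after their values were seen. The strands, gene lists and measures were chosen with earlier results of these data known. Alternatives were the library size, TMM, DESeq2 1.42.0, the minimum of reads, counting distinct sequences once, the replicate block, leaving out each library, the definition of a site, fragment length, the most frequent gene and, chosen after seeing the data, reading the seed from the first base of each hybrid.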

Additional observations from a re-analysis of the deposited data

How the results depend on the processing

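The loss of each of the 3 strands from HM was called under all 13 alternatives (highest adjusted p = 2.17e-05, edgeR or DESeq2), as was that of Laptm4a with miR-291a-5p (highest 3.92e-05), and that of Rcc2 with miR-290a-5p under the 11 in which it had enough reads (highest 0.000109). The 3 strands and both pairs reached the minimum of 10 reads through their WT reads alone. The strands were also chosen with earlier results of these data known, so these calls are given as a description. The share of the 3 strands differed by -6.27 to -5.70 percentage points without any 1 library.

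Counts of calls moved more. Among miRNAs 15 were called higher and 41 lower (56 in all), 40 to 61 without 1 library, and relative to all hybrids 32 higher and 31 lower, with TMM 21 and 33. Among pairs 3 were called higher and 19 lower, and the total was 14 with DESeq2, 5 with at least 20 reads, 9 without WT replicate 1 and 8 without WT replicate 2 (range 8 to 17 without 1 library). Relative to all hybrids, 20 pairs were higher and 13 lower, and with TMM 5 and 14. Among genes 20 were higher and 37 lower, and the total was 24 with DESeq2, 23 with no minimum, 29 with at least 20 reads, 27, 25 and 32 without WT replicate 1, WT replicate 2 and HM replicate 2 (range 25 to 46). Relative to 3p hybrids, 1 gene was higher and 68 lower, and with TMM 21 and 32.

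Replicate numbers did not pair the libraries: deviations from the group means correlated at 0.203, -0.171 and 0.0349 for numbers 1 to 3 over 45 miRNAs. With the replicate block 13 pairs and 34 genes were called, and the paired exact test of the share, whose smallest p is 0.25, gave 0.25.

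Without 1 WT library, Rcc2 took 20% to 26.9% of miR-290a-5p reads, Laptm4a 32.2% to 42.1% of miR-291a-5p reads and Yy2 3.23% to 9.62% of miR-292a-5p reads. The share with a seed site was 15.4% to 17.9%, 36.8% to 44.7% and 22.6% to 34.6%, and bases 12 to 17 were paired in 91.3% to 94.0%, 86.0% to 87.4% and 78.9% to 83.01% of cases, in the same order. For Yy2 the lowest share, 3.23%, was without WT replicate 2, where Yy2 was no longer the most frequent gene of the strand. With the offset 6mer counted, seed sites were present in 57.7% of miR-290a-5p and 47.0% of miR-292a-5p reads, and with the seed read from the first base of each hybrid in 26.9% of miR-290a-5p reads. Without Rcc2 21.7% of miR-290a-5p reads had a site, and without Laptm4a 63.7% of miR-291a-5p reads did, with bases 12 to 17 paired in 79.0% of cases. Of the 12 target genes called over all miRNAs, Gnas passed under 3 alternatives, Map1b under 6, Pank3 under 3, Tmcc1 under 5, Ptar1 under 6 and Yy2 under 5. Single libraries decided these calls: Gnas did not pass without any 1 HM library (adjusted p 0.0542 to 0.168), Pank3 without any 1 of the 6, Map1b without WT replicate 1 or 2 or HM replicate 1 or 2 and Tmcc1 without WT replicate 2 or HM replicate 2, and the cause was not tested. Depth limits these results, since most target genes had 1 read.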
